A study of Mus musculus with 4 samples.

Results

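The genes described here encode 5 costimulatory receptors of T cells: Tnfrsf18 (GITR), Tnfrsf4 (OX40), Tnfrsf9 (4-1BB), Icos and Cd28. With them stands Gm16008, the gene annotated on the other strand of Tnfrsf18. All 6 genes were given by name and found by symbol among the 50600 genes of the count files. Their counts came from 4 RNA-seq libraries of T-helper 2 (Th2) cells, which are CD4 T cells that secrete IL-4 and related type 2 cytokines. They were primary mouse cells of strain C57BL/6NJ, labelled as biological replicates 1 to 4 of 1 group, and names in the file headers give 72 h and a sort. The labels link to a CD4 T cell differentiation protocol, name no further treatment and no genetic change, and give the age as unknown. Each library has a biosample of its own, while the donor entry is the same for all 4. The labels do not say whether the cells came from separate mice, and p-values measure only the spread between these libraries. With 1 group there was no contrast of conditions, so genes were compared with each other inside each library, and replicates with each other.

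T cells need a costimulatory signal beside the signal of their antigen receptor. CD28 is present on resting T cells and binds CD80 and CD86 on antigen-presenting cells, and ICOS, its relative, appears after activation and binds ICOS ligand; both recruit PI3 kinase. GITR, OX40 and 4-1BB belong to the TNF receptor family, appear or increase on activation, bind trimeric TNF-family ligands and signal through TRAF adaptors to NF-kB. GITR and OX40 are also known for their high levels on regulatory T cells.

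The libraries held 1274431 to 1857433 counts, and 3 counts, the limit that a count of 0 allows, corresponded to 1.62 to 2.35 CPM (counts per 1000000). This limit and the intervals below cover counting error only. Counts were assigned by strand, and the 42411 genes with no exon opposite an exon of another gene held only 16.4%, 8.54%, 9.14% and 20.1% of the counts of replicates 1 to 4. All values below are counts that the authors' strand setting assigned to a gene, called own-strand here, and are not mRNA levels. The sources used here do not say whether that setting matched the strand sense of the libraries. If it did not, every own-strand value is one of RNA from the other strand, and the directions within the pair of Tnfrsf18 and Gm16008 are reversed. A measurement that bears on this is the mitochondrial genome, where most mRNA genes lie on the plus strand and RNA of the mt-Nd6 strand is usually the scarcer. Here mt-Nd6, on the minus strand, had 38990 to 49626 counts per kb, and the 12 plus-strand mRNA genes had at most 2853 in any library; these genes were chosen after their values were seen. All 10 T cell markers reached a mean of 1 TPM (counts per exon length, scaled to the same sum in each library). Cd247 (79.6 TPM, a gene with an opposite exon), Cd5 (36.8) and Trac (34.3) led them. A mean of 1 TPM was reached by 23.1% of all 50600 genes and by 70.3% of the 16612 genes with a count. Of 9 Th2 markers 8 reached 1 TPM, led by Il13 (97.8 TPM), Il4 (68.2) and Ptgdr2 (21.8, a gene with an opposite exon). In these lists 2 T cell markers and 4 Th2 markers have an opposite exon. Of the regulatory T cell markers 5 of 7 reached 1 TPM, led by Il2ra (144 TPM), Foxp3 (121, a gene with an opposite exon) and Itgae (8.64), while Ikzf2 had 0 counts. CD8 and natural killer markers held 3, 7, 9 and 10 counts in replicates 1 to 4 with 6 of 8 genes at 0 (Cd8a, Cd8b1, Klrb1c, Ncr1, Klrd1 and Prf1), and the remaining counts came from Eomes and Gzma. B cell markers held 50, 66, 24 and 15 counts, with Ms4a1, Pax5 and Blk at 0 and Cd79a, Ighm and Cd22 highest. Granulocyte and mast cell markers held 0, 4, 0 and 0 counts, all of Epx. Dendritic cell and macrophage markers held 741, 841, 702 and 543 counts, of which 716, 827, 661 and 542 were of Csf1r, a gene with an opposite exon. Csf1r averaged 131 TPM, more than any T cell or Th2 marker, and in replicate 3 this list summed to 161 TPM against 123 for T cell and 145 for Th2 markers. There, Cd68 and Xcr1 followed, and 7 of 12 genes were at 0, among them Itgax, Lyz2 and Adgre1.

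Tnfrsf18 (ENSMUSG00000041954) lies on chromosome 4, 156026164 to 156028895 (mm10, plus strand), with 3 exon blocks and 1524 bp of exon. Gm16008 (ENSMUSG00000087381), an antisense gene of 7 exon blocks and 1324 bp, spans it on the minus strand from 156022008 to 156031643. The pair shares 414 bp of exon. Of these, 334 bp join the first Tnfrsf18 block to block 4 of Gm16008, and 80 bp join the last Tnfrsf18 block to block 3 of Gm16008. The sequences below are shown because a fragment from either one can be assigned to its gene only by strand. The first is the coding part of the first coding exon of Tnfrsf18 (transcript Tnfrsf18-202, chr4:156026387-156026537, plus strand, 151 bases, start codon in capitals), which lies wholly inside block 4 of Gm16008. The second is block 3 of Gm16008 (chr4:156028475-156028554, minus strand, 80 bases), with the 60 bases in capitals that lie opposite coding sequence of the same Tnfrsf18 transcript. Both are 5′ to 3′, from GENCODE M21 transcripts.
Tnfrsf18 first coding exon: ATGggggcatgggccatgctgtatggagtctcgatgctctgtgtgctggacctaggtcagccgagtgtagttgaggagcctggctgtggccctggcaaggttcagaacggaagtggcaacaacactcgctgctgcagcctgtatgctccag
Gm16008 block opposite the last Tnfrsf18 block: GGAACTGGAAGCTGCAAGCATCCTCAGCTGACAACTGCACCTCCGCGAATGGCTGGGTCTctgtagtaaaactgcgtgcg

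**Figure D1:**
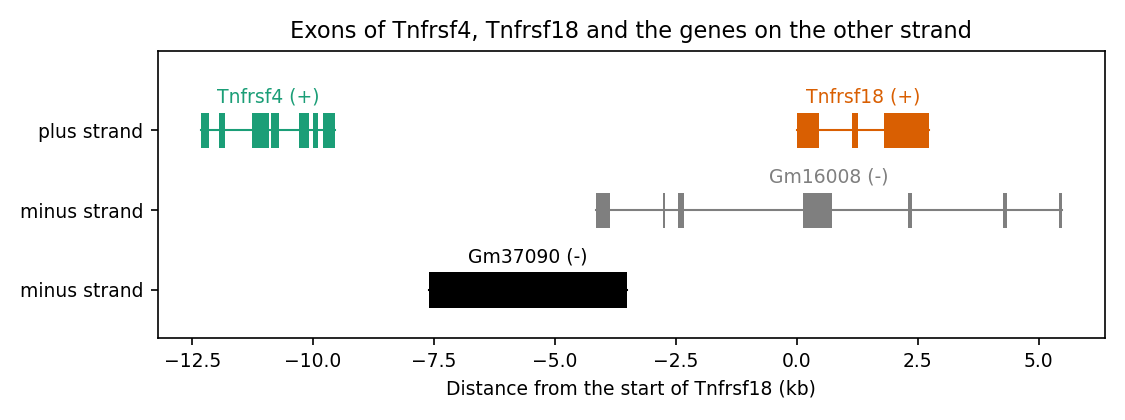
Exon blocks of Tnfrsf4, Tnfrsf18, Gm16008 and Gm37090 drawn to scale, by distance from the start of Tnfrsf18 in kb, with plus-strand genes in the top row. Blocks 4 and 3 of Gm16008 lie opposite the first and last blocks of Tnfrsf18, and its last block lies inside Gm37090 on the same strand.

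Nearly all counts of the pair were assigned to Gm16008, under the strand setting whose sense is not known. Gm16008 had 12841, 17170, 13734 and 9330 counts in replicates 1 to 4, which is 7211, 9244, 9498 and 7321 CPM (mean 8318 ± 1220.4, SD, n = 4). It alone held 0.721% of replicate 1 (95% Wilson interval 0.709 to 0.734), 0.924% of replicate 2 (0.911 to 0.938), 0.95% of replicate 3 (0.934 to 0.966) and 0.732% of replicate 4 (0.717 to 0.747). By mean count it ranked 9 among the 16612 genes with a count, and by mean TPM it ranked 12. Its level was 9277 ± 944 TPM, from 8287 in replicate 1 to 10300.2 in replicate 3. Its last block of 305 bp lies within the same-strand gene Gm37090, and the counting command in the file headers has no option for assigning a fragment to several genes. Gm37090 itself had 151, 165, 118 and 124 counts.

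Tnfrsf18, the receptor gene of the pair, had 260, 218, 177 and 140 counts. These were 146, 117, 122 and 109.9 CPM (124 ± 15.6), highest in replicate 1 and close together in the other 3. Its level was 146, 108, 115 and 113 TPM (121 ± 17.0), which ranked 1053. The Tnfrsf18 share of the counts of the pair was 1.98% in replicate 1 (1.76 to 2.24), 1.25% in replicate 2 (1.10 to 1.43), 1.27% in replicate 3 (1.10 to 1.47) and 1.48% in replicate 4 (1.25 to 1.74), with a mean of 1.5% ± 0.34. The interval of replicate 1 lies above those of the others. Per kb of exon, Gm16008 had 56.8, 90.7, 89.3 and 76.7 times the counts of Tnfrsf18 (78.4 ± 15.7).

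Tnfrsf4 (ENSMUSG00000029075) encodes OX40, which sustains the survival of activated CD4 T cells. It lies on chromosome 4, 156013843 to 156016612 (plus strand, 7 exon blocks, 1365 bp), and ends 9551 bp before Tnfrsf18 starts. No exon of another gene lies opposite it. It had 148, 64, 33 and 154 counts, or 83.1, 34.5, 22.8 and 121 CPM (65.3 ± 45.3). Replicates 1 and 4 were high and replicates 2 and 3 low, with 5.30-fold between the highest and lowest library. Its level was 92.6, 35.5, 24.0 and 139 TPM (72.8 ± 53.4).

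Tnfrsf9 (ENSMUSG00000028965) encodes 4-1BB, which is induced by activation. It lies on chromosome 4, 150914562 to 150946102 (plus strand, 11 exon blocks, 2722 bp), with no opposite exon. It had 125, 54, 25 and 110 counts, or 70.2, 29.1, 17.3 and 86.3 CPM (50.7 ± 32.8). The same libraries were high and low as for Tnfrsf4, and the highest was 4.99-fold above the lowest. Its level was 39.2, 15.0, 9.12 and 49.8 TPM (28.3 ± 19.4).

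Promoter windows were in the RefSeq table (GRCm38.p6) for 4 of the 6 genes. Tnfrsf18 and Tnfrsf4 have 1 window each, and Gm16008 and Tnfrsf9 have 2 each, from 250 bases before to 50 after a start. NF-kB, AP-1 and NFAT are transcription factors that T cell activation turns on. Both strands were searched for the NF-kB consensus, for the AP-1 motif TGANTCA and for the NFAT core GGAAA. The NF-kB consensus occurred in 8.46% of all 32851 windows, the AP-1 motif in 7.81% and the NFAT core in 61.3%. Among the 6 windows, matches to the NF-kB consensus and to TGANTCA were found in 1 window, the second of Tnfrsf9 (start at 150927999), which also held 3 matches to GGAAA. The other windows held 1 to 3 matches to GGAAA. These are matches of letters only, and binding was not measured. The stretch with the NF-kB match is shown as chr4:150927947-150927976 (plus strand), with the 11 bases of 2 overlapping matches in capitals. Between the last capital and that start lie 32 bases, and between it and the AP-1 match (150927984 to 150927990) lie 17.
Tnfrsf9 NF-kB consensus match: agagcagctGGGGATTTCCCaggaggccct

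Cd28 (ENSMUSG00000026012), the gene of the constitutive receptor, lies on chromosome 1, 60716800 to 60773359 (plus strand, 7 exon blocks, 6122 bp), with no opposite exon. It had 59, 17, 4 and 87 counts, or 33.1, 9.15, 2.77 and 68.3 CPM (28.3 ± 29.7). Replicate 4 was highest and replicate 3 lowest, 24.7-fold apart, the widest ratio among the 5 genes with a count in every library. Its level was 8.23, 2.10, 0.649 and 17.5 TPM (7.13 ± 7.67), and the mean without replicate 4 was 3.66 TPM.

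Icos (ENSMUSG00000026009), the gene of the inducible receptor, lies on chromosome 1, 60977927 to 61000320 (plus strand, 5 exon blocks, 3430 bp), with no opposite exon. It had 31, 5, 0 and 10 counts, or 17.4, 2.69, 0 and 7.85 CPM. The count of 0 in replicate 3 allows up to 2.07 CPM, and the value of replicate 1 was 8.39-fold this limit. That ratio leaves out the counting error of the 31 counts in replicate 1 and is on the scale of total counts. Its level was 7.72, 1.10, 0 and 3.6 TPM (3.11 ± 3.43), the lowest of the 6 genes, and the mean without replicate 1 was 1.57 TPM. At this depth a low Icos value does not show that its RNA was absent.

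With counts as the strand setting assigned them, the order by mean TPM was Gm16008, Tnfrsf18, Tnfrsf4, Tnfrsf9, Cd28 and Icos, with ranks of 12, 1053, 1458, 2424, 5150 and 7780 among the genes with a count. Neighbours in this order were compared within each library on the log2(TPM + 1) scale, which understates differences of low genes. The order was taken from these same libraries, so the directions and p-values below are no independent support for it. Gm16008 exceeded Tnfrsf18 by 6.26 ± 0.31 and Tnfrsf4 exceeded Tnfrsf9 by 1.29 ± 0.12, each in 4 of 4 libraries. Tnfrsf9 exceeded Cd28 by 2.14 ± 0.50, also in 4 of 4. Each of these had an exact two-sided sign-flip p = 0.13, the smallest that 4 libraries allow (0.156 after Benjamini-Hochberg adjustment over 5 comparisons), so 0.05 could not be reached.

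The order of Tnfrsf18 and Tnfrsf4 was not the same in all 4 libraries, and the test could not decide whether they differ. Tnfrsf18 was higher by 0.65, 1.58 and 2.22 in replicates 1 to 3 and lower by 0.29 in replicate 4 (mean 1.04 ± 1.10, exact sign-flip p = 0.25, adjusted 0.25), and the mean was 0.65 without replicate 3. Cd28 exceeded Icos by 0.08, 0.56, 0.72 and 2.01 (mean 0.84 ± 0.82, exact sign-flip p = 0.13, adjusted 0.156). This mean was close to its SD and was 0.45 without replicate 4.

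**Figure D2:**
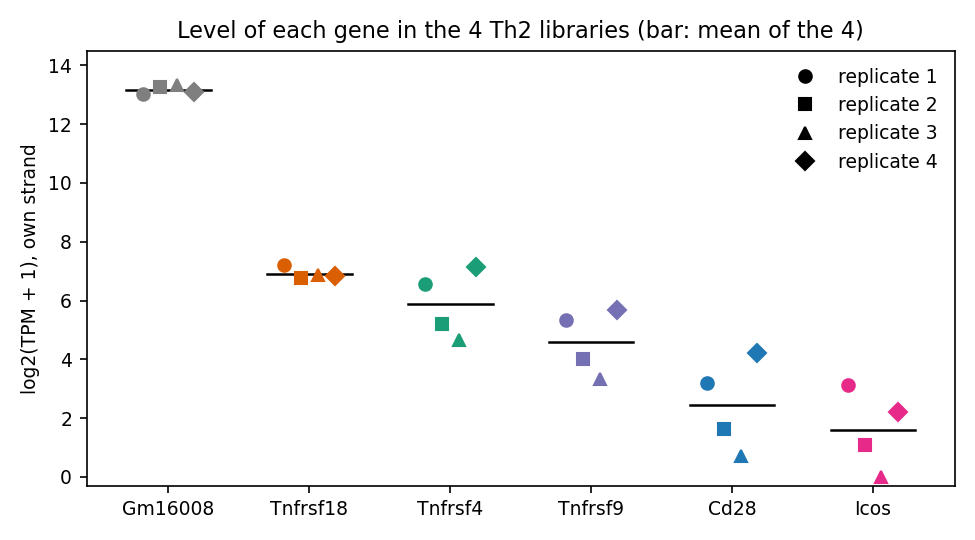
Own-strand level of each gene as log2(TPM + 1) in replicates 1 to 4 (symbols), with a bar at the mean of the 4 log values. Gm16008 and Tnfrsf18 sit in narrow bands, whereas for the other 4 genes replicates 1 and 4 lie above replicates 2 and 3.

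The genes differed in how they varied over the libraries. Around its own mean of log2 CPM, Tnfrsf4 lay at 0.64, −0.62, −1.20 and 1.18 in replicates 1 to 4, and Tnfrsf9 at 0.74, −0.52, −1.26 and 1.04. The root mean square difference between these profiles was 0.10. Cd28 lay at 1.05, −0.77, −2.37 and 2.09, in the same order of libraries as Tnfrsf4. Icos lay at 2.34, −0.24, −3.34 and 1.24, where the value of replicate 3 depends on the prior count of 0.5. On this scale of total counts Tnfrsf18 stayed within −0.16 to 0.24 and Gm16008 within −0.19 to 0.20.

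The summed counts of all genes with no opposite exon moved over the libraries too, by 0.37, −0.57, −0.47 and 0.67 on the same scale. In CPM of those counts only, Tnfrsf4 was at 506, 403, 249.8 and 600.0 and Tnfrsf9 at 428, 340.4, 189 and 429. The ratio of the highest to the lowest library was then 2.40 for Tnfrsf4, 2.27 for Tnfrsf9, 2.52 for Tnfrsf18, 2.98 for Gm16008 and 11.2 for Cd28. Tnfrsf18 and Gm16008 were thus no steadier than Tnfrsf4 and Tnfrsf9 on this scale. On this scale the order turned for Tnfrsf18, at 889, 1374, 1340 and 545, with replicates 2 and 3 above replicates 1 and 4. Which of these scales is the right one for Tnfrsf18 was not tested. The summed TPM of marker lists moved as well. T cell markers summed to 335, 173, 123 and 522 TPM, Th2 markers to 284, 155, 145 and 426, and regulatory T cell markers to 361, 194, 179.5 and 408. Without Il2ra the other 6 regulatory T cell markers summed to 162, 137, 125 and 144 TPM, and the median of the whole list was 6.81, 6.63, 8.32 and 4.58, lowest in replicate 4. Their part in the profiles of the receptors was not tested. Fewer cells of a type, less RNA per cell and the shift of all genes with no opposite exon cannot be told apart in this bulk RNA.

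**Figure D3:**
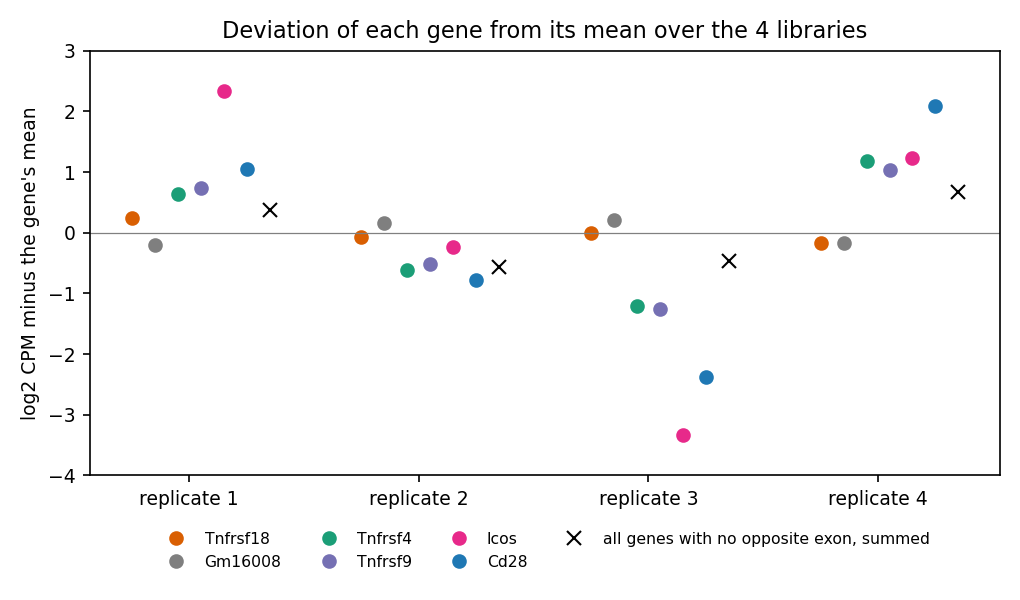
Deviation of log2 CPM from each gene's own mean over the 4 libraries (prior count 0.5), by replicate, with the sum of all genes without an opposite exon as crosses. Tnfrsf4, Tnfrsf9, Cd28 and Icos are above 0 in replicates 1 and 4 and below it in replicates 2 and 3, and Tnfrsf18 and Gm16008 stay close to 0 on this scale, but not per count of genes with no opposite exon.

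A chi-square test against Poisson sampling (TMM-scaled library sizes, Benjamini-Hochberg adjustment at 0.05) asked whether the libraries differed beyond counting error. It called all 6 genes, where 88.2% of the 7752 genes tested were called. The adjusted p was 1.07e-20 for Cd28, 8.21e-18 for Tnfrsf4, 4.16e-12 for Tnfrsf9, 4.50e-07 for Icos and 0.0013 for Tnfrsf18. The chi-square value of Gm16008 was 3318 on its large counts, against 16.4 for Tnfrsf18. Without replicate 4, Tnfrsf18 was no longer called (adjusted p = 0.976), and the TMM-scaled values of replicates 1 to 3 were 135, 138 and 133 CPM against 93.2 in replicate 4. When the test was confined to genes with no opposite exon, it called 76.2% of 3827 genes. There, the adjusted p was 0.014 for Tnfrsf4, 0.038 for Tnfrsf9, 2.31e-04 for Icos and 3.73e-07 for Cd28.

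Set against the other 3 with edgeR's quasi-likelihood test, no library was called for any of the 6 genes. The adjusted p ran from 0.387 to 0.999 over 24 tests, and 3 of these had an unadjusted p under 0.05, against 2 with DESeq2. The share of all genes called was 0% for replicate 1, 0.0129% for replicate 2, 0.0387% for replicate 3 and 0% for replicate 4. The 3 tests were Cd28 in replicate 3 (edgeR log2 fold change −3.42, adjusted p = 0.387), Cd28 in replicate 4 (1.94, adjusted p = 0.565) and Icos in replicate 3, where the count was 0 (adjusted p = 0.387). With 1 of the 3 comparison libraries left out, 9 of 69 tests passed, in fits that called a larger share of all genes too. This share was 3.27% in replicate 1 without replicate 4, 4.88% in replicate 2 without replicate 3, 9.23% in replicate 3 without replicate 2 and 14.6% in replicate 4 without replicate 1. Replicate 3 without replicate 2 was lower for Tnfrsf4 (log2 fold change −1.82), Tnfrsf9 (−1.84) and Cd28 (−3.81). Replicate 4 without replicate 1 was higher for Tnfrsf4 (1.67) and Cd28 (3.06). The remaining 4 were of Gm16008, which was lower in replicate 1 without replicate 4 (−0.65) and in replicate 4 without replicate 1 (−0.75), and higher in replicate 2 without replicate 3 (0.80) and in replicate 3 without replicate 2 (0.71).

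The genes with the most similar profile were sought among the 3092 genes that averaged at least 50 counts, by the root mean square difference of centred log2 CPM over the 4 libraries. With 4 values per gene, these are given as a description. For Tnfrsf4 they were Vim (0.05; 393, 157, 89 and 410 counts), Setd5 (0.07) and Rhoa (0.07), and for Tnfrsf9 they were Setd5 (0.04; 103, 43, 21 and 94 counts), R3hdm1 (0.06) and Fkbp4 (0.06). Tnfrsf18 was closest to Mfsd3 (0.02; 278, 239, 193 and 147 counts), Smpd4 (0.03) and Cd3eap (0.03). Gm16008 was closest to Fgfr3-ps (0.01; 454, 605, 494 and 336 counts), Gm20490 (0.02) and Gm45187 (0.02), and all 3 of these have an opposite exon. Cd28 was closest to Rps10 (0.14), Rsrc2 (0.21) and Birc6 (0.21). For Icos, Calm2 (0.74), Phb2 (0.74) and Rsrc2 (0.75) were nearest, at wider differences than for the other 5 genes. An opposite exon is also present in Rhoa, Mfsd3, Cd3eap, Rps10, Birc6 and Phb2. Such exons are common, since of the 7752 genes that averaged at least 10 counts only 3827 have none. The share among the 3092 genes searched is not given here.

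Neighbouring genes gave a local view of each receptor. Sdf4, which encodes a calcium-binding protein of the Golgi, ends 232 bp before Tnfrsf4 on the same strand. It had 478, 189, 168 and 462 counts (52.7 ± 33.4 TPM), high and low in the same libraries as Tnfrsf4. So were the summed counts of all genes with no opposite exon, at 0.37, −0.57, −0.47 and 0.67 around their mean log2 CPM. This pattern is thus not particular to the locus. Park7, whose start lies 124 bp from that of Tnfrsf9 on the other strand, had 73, 14, 20 and 40 counts (14.3 ± 9.82 TPM). On chromosome 1, Ctla4, the inhibitory receptor that competes with CD28 for its ligands, lies between Cd28 and Icos, 113640 bp after the former and 62094 bp before the latter. It had 242, 92, 93 and 374 counts and 88.7, 29.9, 39.6 and 198 TPM (89.1 ± 77.0), above Cd28 and Icos in each of the 4 libraries. Gm11579, a noncoding gene on the minus strand 3305 bp past Cd28, had 42, 36, 48 and 32 counts, more evenly spread than the 59, 17, 4 and 87 of Cd28. The other neighbours that averaged at least 10 counts were 9430015G10Rik, Dnajc11, Ino80d and Raph1, with mean levels of 0.925 to 3.51 TPM.

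Of 86 genes in 7 lists of the costimulatory pathway, 70 reached a mean of 1 TPM, against 23.1% of all 50600 genes and 70.3% of the 16612 genes with a count. Among the 77 with no opposite exon, 62 did, and the share over all genes with no opposite exon is not given here. The spread test covered 62 of the 86 and called 53 (85.5%), near the 88.2% of all genes.

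In the TNF receptor family list 8 of 10 genes reached 1 TPM, and the highest were Tnfrsf18, Tnfrsf4 and Cd27, a receptor of naive and memory T cells at 36.5 ± 16.9 TPM. Cd27 had 73, 116, 140 and 41 counts, with replicates 2 and 3 above replicates 1 and 4, opposite to Tnfrsf4. Cd40, a receptor of B cells and other antigen-presenting cells, had 0 counts in all 4 libraries. All 7 genes of this list that were tested were called for spread. In the immunoglobulin family list 10 of 12 genes reached 1 TPM, led by the adhesion and signalling receptors Cd2 (63.1 ± 50.4 TPM), Cd6 (61.0 ± 17.0) and Cd5 (36.8 ± 26.8), all above Cd28 and Icos in mean TPM. Havcr1 had 0 counts, and all 9 tested genes were called.

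The ligands were the lowest list, with 6 of 12 genes at 1 TPM or more. Tnfsf18, the GITR ligand, and Cd70, the CD27 ligand, had 0 counts in all 4 libraries, which allows up to 1.62 to 2.35 CPM in each. Icosl, the ICOS ligand, had 0, 1, 0 and 0 counts, Cd80 0, 0, 0 and 4, Cd86 0, 2, 0 and 0, and Tnfsf4, the OX40 ligand, 1, 0, 0 and 8. Tnfsf9, the 4-1BB ligand, was the exception among the ligands of the 5 receptors, with 23, 13, 22 and 11 counts (13.2 ± 4.48 TPM). The low ligands and Tnfsf9, other than Tnfsf18 and Cd70, were chosen after their values were seen. The highest of the list were the lymphotoxin genes Lta (54.7 ± 43.2 TPM) and Ltb (21.9 ± 5.05) and the CD30 ligand gene Tnfsf8 (16.9 ± 19.6). Of 5 tested, 3 were called for spread, and Tnfsf9 and Tnfsf14 were not.

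Downstream of the TNF receptors, 16 of 19 genes of the TRAF and NF-kB list reached 1 TPM, with Ikbkg (34.1 ± 2.72 TPM, a gene with an opposite exon), the inhibitor gene Nfkbia (33.5 ± 24.6) and Nfkb2 (33.0 ± 8.48, with an opposite exon) highest. Nfkbia had 77, 27, 25 and 85 counts, and 11 of 14 tested genes were called. Downstream of CD28 and ICOS, 15 of 16 genes of the PI3 kinase and proximal list did, led by the paracaspase gene Malt1 (30.1 ± 28.8 TPM; 267, 50, 24 and 261 counts) and the kinase gene Lck (25.5 ± 23.1). There, 12 of 15 tested genes were called. Themis, with 93, 26, 0 and 170 counts, was also lower in replicate 3 by the edgeR test against the other 3, the only such call among the 86 genes; it has an opposite exon and was named after its values were seen.

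All 8 survival genes reached 1 TPM, led by Il2ra (144 ± 105 TPM; 1334, 427, 311 and 1221 counts), the anti-apoptotic gene Mcl1 (17.1 ± 8.59) and Il2 (10.5 ± 16.2; 0, 2, 7 and 32 counts), and all 6 tested were called. Of 9 opposing receptors 7 reached 1 TPM, with Ctla4, Btla (56.2 ± 24.8 TPM) and Tigit (29.6 ± 14.2) highest and Cd244a at 0 counts, and 5 of 6 tested were called. The median level of the TNF receptor family list was 15.4, 4.78, 4.03 and 19.6 TPM in replicates 1 to 4, and that of the immunoglobulin family list 7.75, 1.15, 0.722 and 13.2. Over all genes with a count the median was 2.8, 1.44, 1.21 and 3.46 TPM, high and low in the same libraries.

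**Figure D4:**
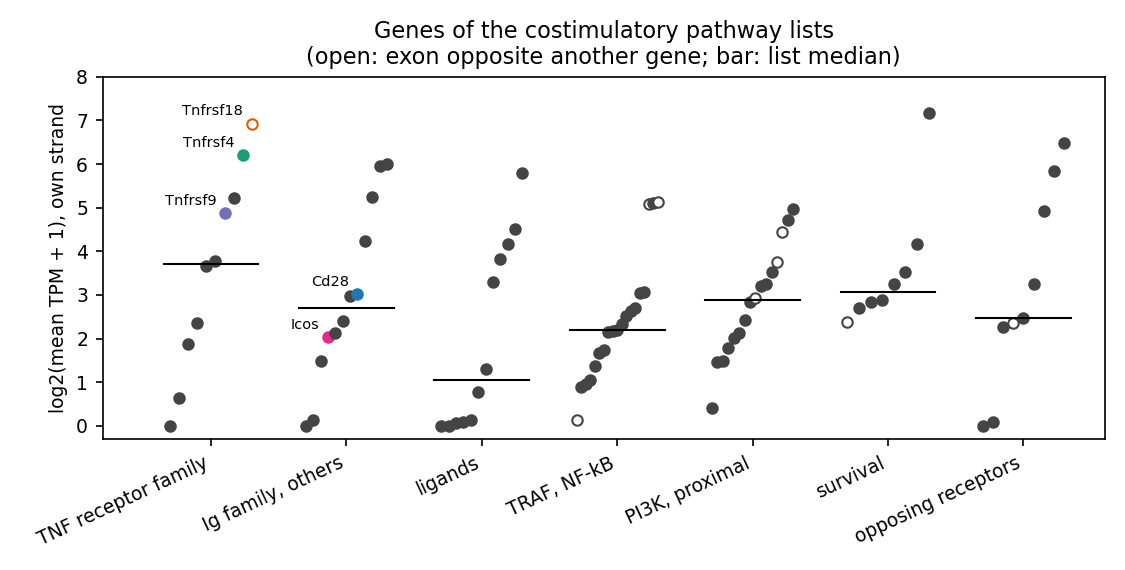
Mean own-strand level over the 4 libraries, as log2(mean TPM + 1), of each gene in the 7 pathway lists, with a bar at each list's median. Tnfrsf18 and Tnfrsf4 top the TNF receptor family list, Cd28 lies above and Icos below the median of theirs, and the ligand list has the most genes near 0.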

How the data were processed

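The authors deposited raw fragment counts for each gene. Per the file headers, featureCounts v1.4.6-p4 counted sorted STAR alignments to mm10 over GENCODE M13 exons, with both ends mapped and strand option 1. Per the labels the assay is total RNA-seq, but the name of the linked library protocol says poly(A) RNA. Symbols came from GENCODE M21 by identifier (50376 of 50600 matched). CPM and TPM were computed from the counts and the exon lengths in the files, and exons were compared by strand. Genes that averaged at least 10 counts were tested with edgeR 4.0.16 in R 4.3.3, with DESeq2 1.42.0 as alternative, and with a chi-square test on TMM sizes, whose log2 factors ran from −0.23 to 0.24. SciPy 1.17.1 gave the intervals. The tests were tried on simulated counts. The genes, lists and tests were chosen with earlier results of these data known. The named genes were the 6 genes, the 3 highest of each list, ligands and receptors at 0, exon partners, nearest counted neighbours and the 3 closest profiles. Some results of this rule are not reported here. Icos was below the count minimum when replicate 1 was left out. Alternatives were another pseudocount, FPKM, other lengths, other size factors, no filter, other detection levels, a rescaled TPM and leaving out each library.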

Additional observations from a re-analysis of the deposited data

Results flagged for a closer look

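Of 25 sets of 4 library values that were checked (levels of the genes, differences between neighbours, the Tnfrsf18 share and list medians), 1 had a library far from the other 3 by Dixon's ratio, where chance alone gives about 1 in 20. It was the median TPM of the ligand list, with a ratio of 0.913, above the critical value for 4 values. The median was 0.360, 0.289, 0 and 4.13 TPM in replicates 1 to 4, so replicate 4 stood apart. Ligand counts that were higher in replicate 4 than in the other libraries include Tnfsf4 (1, 0, 0 and 8), Cd80 (0, 0, 0 and 4), Tnfsf8 (51, 25, 20 and 142) and Lta (92, 41, 34 and 129). Other ligand counts were lowest there or no higher than elsewhere. Ltb had 35, 56, 36 and 20, Tnfsf9 23, 13, 22 and 11, and Tnfsf14 31, 12, 16 and 12. In TPM, Ltb was lowest in replicate 4, while Tnfsf9 (8.01) and Tnfsf14 (4.89) were lowest in replicate 2. On neither scale was Ltb, Tnfsf9 or Tnfsf14 highest in replicate 4. All except Lta, Ltb and Tnfsf8 were named after their values were seen.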

How the results depend on the processing

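All 5 differences between neighbours in the order of levels kept their direction with a pseudocount of 0.1, FPKM, other lengths and each library left out. The order was itself taken from these libraries, so a kept direction is no independent support for it. Cd28 minus Icos was 1.53 with the pseudocount of 0.1. With exon length that has no opposite exon, Tnfrsf18 minus Tnfrsf4 was 1.49 (exact sign-flip p = 0.13). TPM rescaled over genes with no opposite exon plus the 6 genes was 103544 for Gm16008, 1303 for Tnfrsf18, 676 for Tnfrsf4, 266 for Tnfrsf9, 61.3 for Cd28 and 28.1 for Icos, by construction of the smaller total. At a mean of 5 TPM, 44 of the 86 list genes remained against 70. The spread test called 11679 genes with no filter and 2916 among genes with no opposite exon, against 6838; both settings changed the scaling as well as the genes tested. It called Tnfrsf18 with median-of-ratios factors, total counts and no filter (adjusted p 1.07e-04 to 0.027) and lost it without replicate 4 (adjusted p 2.80e-04 to 0.976 over the 4 leave-outs). In the edgeR test of each library, median-of-ratios factors or no filter called 3 genes in replicate 2 and 3 in replicate 4, against 1 and 0, and in replicate 3 DESeq2 or genes with no opposite exon called 0 against 3 (724 genes had an unadjusted DESeq2 p under 0.05). With 1 library left out, the counts ran from 0 to 240 for replicate 1, 1 to 400 for replicate 2, 2 to 743 for replicate 3 and 3 to 1064 for replicate 4. The lone library was there assumed to vary like the other 2. The cause of these changes was not tested. No paired analysis was possible because there is 1 group. At this depth single counts decide the values of Icos in replicates 2 and 3 and of Icosl, Cd80 and Cd86.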
